A study of Canis lupus familiaris with 22 samples.

Results

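The chemokine ligands described here are 10 genes of secreted or membrane-bound signals that draw leukocytes into tissue, measured in canine bladder. They were found by name: a probe set was taken where the platform annotation gave the gene as its only symbol. All 10 genes were measured, of 15115 genes in all, through 18 of the 29254 probe sets with 1 symbol. Of the genes, 3 had 1 probe set (CCL2, CCL5 and CX3CL1), 6 had 2, and CXCL8 had 3. The suffix of 10 of the 18 probe sets marks probes that can match several transcripts, and CCL2 and CCL5 rest on such a probe set alone. The 18 iUC samples are naturally occurring, high grade invasive urothelial carcinomas of pet dogs, biopsied by cystoscopy before therapy, and the 4 normal bladder samples came from age-matched healthy dogs without a tumor. No transgene, induced deletion or treatment separates the groups. Which layers of the bladder wall the normal samples held was not given in the sources used here.

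Chemokines are small proteins sorted by the spacing of their first cysteines into CXC, CC and CX3C families, and they act through G protein-coupled receptors on leukocytes. Inducible ligands are switched on by inflammatory signals such as NF-kB activity or interferon. CXCL8 attracts neutrophils, CCL2 and CCL8 attract monocytes, CXCL10 and CCL5 attract T cells, CCL20 attracts dendritic and T cells that carry CCR6, and CX3CL1 is tethered to the surface of epithelium and endothelium. Homeostatic ligands are made in unperturbed tissue, and 3 of the 10 were placed in that group: CXCL12 and CXCL14, made by fibroblasts and other stromal or epithelial cells, and CCL19, a ligand of lymphoid stroma. The other 7 were placed in the inducible group. In whole tissue, fewer cells of a type and less RNA per cell cannot be told apart.

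Each value is a log2 value that the authors centred on the median of its probe set over the 22 arrays, so it gives a sample's distance from the middle sample and no level, and genes cannot be ranked by it. Probe sets of the same gene were averaged. A gene was called at an adjusted p of 0.05 or below from limma (Benjamini-Hochberg over all genes) and a fold change of 2 or more. The arrays were not alike in every respect. Of the iUC arrays, 7 had a mean of 0.28 to 0.46 over 17 Tag control probe sets, which match no dog transcript, and the other 11 lay between -0.13 and 0.13, beside -0.21 to -0.08 on the normal arrays. The labels of normal bladder replicates 2, 3 and 4 share an ending that no other sample has. The difference between 3' and 5' control probe sets of actin was 0.69 to 1.62 on those 3 arrays. It was -0.997 on normal bladder replicate 1 and -1.85 to -0.16 on the iUC arrays. For GAPDH it was 0.16 to 0.51 on the same 3 arrays, -0.14 on replicate 1 and -0.37 to 0.82 on the iUC arrays. The mean of 6 GAPDH and actin control probe sets was -1.52 to -0.60 on the 7 iUC arrays of higher Tag mean. It was -0.80 to 0.44 on the other 11 and -0.37 to 0.44 on the normal arrays. Normal bladder replicates 3 and 4 correlated at 0.934 across genes, and the next normal pair at 0.728. Markers of the labelled tissue differed between the groups: of 18 measured urothelium genes 12 were higher in iUC, and of 12 smooth muscle genes 10 were lower. Over all genes 3.68% were called higher and 8.64% lower. With only 4 normal samples, precision is limited throughout. Limma takes 1 spread per gene for both groups, so where normal samples varied more, standard errors and p-values can be too small. Where normal samples varied less, they can be too large, and a difference can go uncalled. Standard deviations in normal bladder and iUC were 1.09 and 0.36 for CXCL14, 2.23 and 1.26 for CXCL8, and 0.89 and 0.36 for CCL8. They were 1.25 and 1.16 for CCL2. Normal samples varied less for CXCL12 (0.40 and 0.75), CXCL10, CCL5, CCL19, CCL20 and CX3CL1.

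In iUC, CCL2, CXCL8, CXCL12 and CXCL14 were lower, by 2.81 to 7.08-fold, and no ligand was called higher. The calls came from both groups, with CXCL12 and CXCL14 among the 3 homeostatic ligands and CCL2 and CXCL8 among the 7 inducible ones. The 4 called lower are 4 of 10, against 8.64% of all genes, and 0 of 10 were called higher, against 3.68%. At an unadjusted p of 0.05, CX3CL1 was the only ligand higher in iUC. An unmoderated unpaired t-test per gene, with the same adjustment and fold change, called 0 higher. That test also pools the spread of both groups, so it is no separate check where normal samples varied less. With no fold change asked, 5 of the 10 passed the adjusted p and were lower (17.5% of all genes) and 1 was higher (18.2%). The median log2 fold change was -1.49 over the homeostatic ligands and -0.01 over the inducible ones, beside 0.08 over all genes. After quantile normalization none of the 10 was called, and with the label ending as block (the iUC samples against normal bladder replicate 1 alone) CXCL8 was the 1 called. With the 11 iUC arrays of low Tag signal 4 were lower (5.96% of all genes), and with the 7 of high Tag signal 4 were lower (17.4% of all genes). CCL8 took the place of CXCL8 among the calls with low Tag signal.

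**Figure D1:**
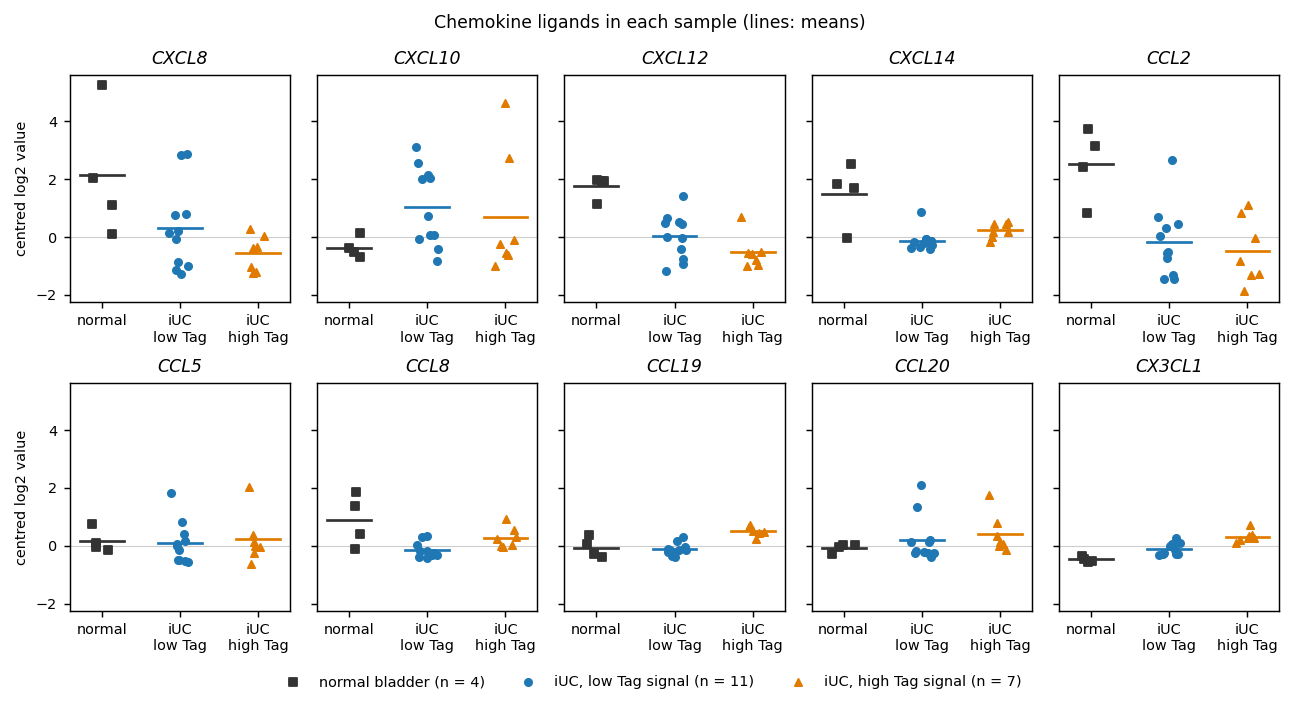
Centred log2 values (y axis) of the 10 chemokine ligands in each sample, by normal bladder (4 samples) and iUC arrays of low (11) and high (7) Tag control signal (x axis), with lines at the means. CCL2, CXCL8, CXCL12 and CXCL14 have higher means in normal bladder, CXCL10 spreads from -1.01 to 4.64 in iUC, and CX3CL1 lies above all normal values in every iUC sample.

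CXCL12, the ligand of CXCR4 and ACKR3, varied less among the normal samples than the other 3 called ligands and was low in nearly every tumor. The normal values were 1.95, 1.16, 1.97 and 1.93 in replicates 1 to 4, and the iUC samples ran from -1.19 through a median of -0.46 to 1.43. Normal bladder replicate 2 lay below the other normal samples, and 17 of 18 iUC samples lay below all 4, with iUC replicate 16 inside the normal range. On the log2 scale CXCL12 fell by 1.95, which is 3.85-fold, with a standard error of 0.38 (adjusted p = 0.000506 from limma). The difference was -1.73 with the iUC arrays of low Tag signal and -2.28 with those of high Tag signal. Both probe sets were lower, one by 2.90 and the other by 0.99, the latter short of 2-fold. Blocked on the label ending, the difference was -2.15 (adjusted p = 0.147 from limma). ACKR3, which binds and clears CXCL12, fell by 2.81 (standard error 0.52, adjusted p = 0.000345 from limma) and ran from 1.55 to 4.25 in normal bladder and from -0.98 to 2.52 in iUC. CXCR4 had no probe set that names it alone.

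CXCL14, an epithelial and stromal chemokine of resting tissue, was high in 3 of the normal samples. Its values were 1.84, -0.05, 2.52 and 1.70 in normal bladder replicates 1 to 4, against -0.41 to 0.87 with a median of -0.10 in iUC. Normal bladder replicate 2 lay among the tumors, and the other 3 normal samples lay above all 18. The gene fell by 1.49 (2.81-fold, standard error 0.29, adjusted p = 0.000478 from limma), and both probe sets were called lower. Its standard deviation was 1.09 over the normal samples and 0.36 over iUC, so the standard error and p from a shared spread can be too small. The difference was -2.01 without normal bladder replicate 2 and -1.82 when blocked on the label ending (adjusted p = 0.0771 from limma). In the same samples the mean of 16 fibroblast genes was 2.08, 0.79, 2.22 and 2.08 in normal bladder replicates 1 to 4 and -0.87 to 0.90 in iUC. Of these genes 12 were called lower (75%, against 8.64% of all genes). PDGFRA, a growth factor receptor, was called higher (1.96), but not without normal bladder replicate 1, 2 or 4. The mean of the smooth muscle genes was 3.03 to 4.72 in normal bladder, lowest in replicate 2, and at most 1.5 in iUC. The part of these cell types in the values of CXCL12 and CXCL14 was not tested.

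CCL19, the ligand of CCR7 on dendritic cells and naive T cells, did not follow CXCL12 and CXCL14. Its values were 0.06, -0.40, 0.38 and -0.28 in normal bladder replicates 1 to 4 and -0.38 to 0.72 in iUC, so that the groups overlapped. The log2 difference was 0.19 (95% confidence interval -0.22 to 0.61, adjusted p = 0.444 from limma). It ran with the Tag class of the array: -0.38 to 0.32 on the 11 iUC arrays of low signal and 0.22 to 0.72 on the 7 of high signal. The difference from normal bladder was -0.06 with the former (adjusted p = 0.769 from limma) and 0.59 with the latter (adjusted p = 0.00459 from limma), under 2-fold. Its probe sets had opposite signs, at -0.11 and 0.50, and neither passed the test. The part of the array signal in this was not tested. CCR7 differed by 0.30 (standard error 0.15, adjusted p = 0.107 from limma).

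**Figure D2:**
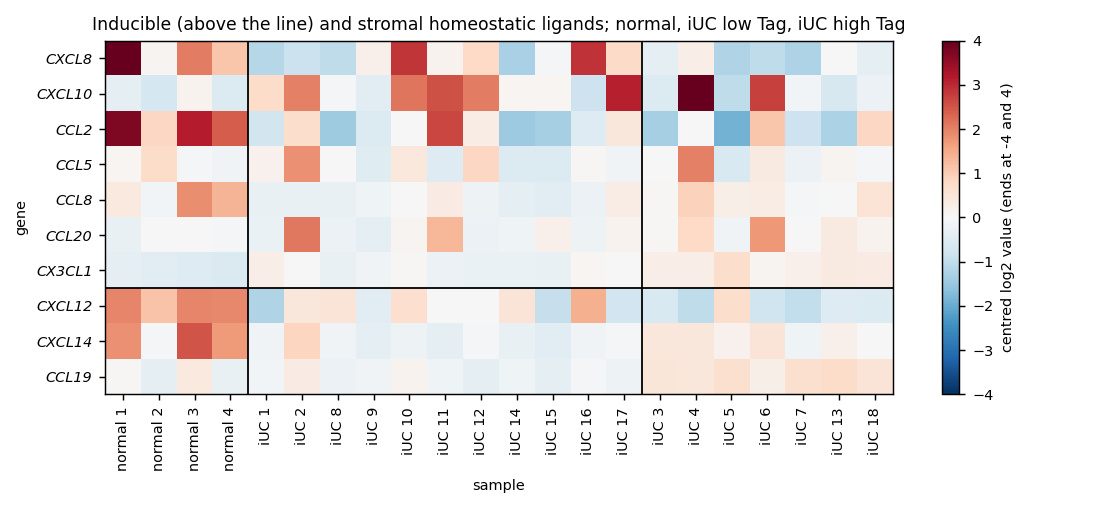
Centred log2 values (colour, ending at -4 and 4) of the 7 inducible ligands above the horizontal line and the 3 homeostatic ligands below it (y axis), in each of the 22 samples (x axis). Normal bladder samples stand on the left, iUC arrays of low Tag signal in the middle and those of high Tag signal on the right. High CCL5 appears in iUC replicates 2 and 4 and high CCL20 in replicates 2, 6 and 11, while CXCL10 lies at 1 or above in 7 iUC samples.

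CCL2, the main attractant of monocytes through CCR2, fell more than any other of the 10 ligands over all samples. The normal values were 3.73, 0.83, 3.14 and 2.42 in replicates 1 to 4, and iUC ran from -1.88 through a median of -0.54 to 2.67. Of the iUC samples, 16 lay below all normal samples, and replicates 6 and 11, at 1.11 and 2.67, lay within their range. CCL2 fell by 2.82 (7.08-fold, standard error 0.62, adjusted p = 0.00161 from limma). Without each normal replicate in turn it stayed called, at -3.39 to -2.42. Blocked on the label ending it was -4.03 (adjusted p = 0.0601 from limma). After quantile normalization it was -1.81 (adjusted p = 0.0656 from limma).

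CCL8, a monocyte attractant encoded beside CCL2 with only CCL7 between them in the dog gene order (reference assembly UU_Cfam_GSD_1.0), passed the adjusted p and stayed under 2-fold. Normal bladder replicates 1 to 4 had values of 0.40, -0.09, 1.86 and 1.36, and iUC ran from -0.41 through a median of -0.02 to 0.92. Replicates 3 and 4 lay above every tumor, and replicates 1 and 2 lay within the range of the tumors. The difference was -0.86 (standard error 0.26, adjusted p = 0.013 from limma). It was called lower with array weights (-1.64, adjusted p = 4.64e-07 from limma), without normal bladder replicate 1 (-1.03) or 2 (-1.19) and with the iUC arrays of low Tag signal (-1.04). It did not pass the adjusted p without replicate 3 (-0.54) or 4 (-0.70), with the arrays of high Tag signal (-0.60), after quantile normalization (-0.66) or when blocked on the label ending (-0.38). CCL7, the gene between them and another monocyte attractant, fell by 1.01 (standard error 0.30, adjusted p = 0.0137 from limma). Its standard deviation was 1.38 over the normal samples and 0.21 over iUC. It was not called without normal bladder replicate 1 (-0.39) or 3 (-0.94). CCR2 differed by 0.22 (standard error 0.12, adjusted p = 0.147 from limma).

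CXCL8, the neutrophil attractant also known as interleukin-8, was lower in iUC, and 1 normal sample carried much of the difference. The normal values were 5.26, 0.11, 2.05 and 1.10 in replicates 1 to 4, against -1.29 to 2.88 with a median of -0.21 in iUC. Normal bladder replicate 1 stood above all other samples, replicate 2 lay among the tumors, and iUC replicates 10 and 16, at 2.85 and 2.88, lay above 3 of the 4 normal samples. CXCL8 fell by 2.17 (4.49-fold, standard error 0.76, adjusted p = 0.0324 from limma). Without normal bladder replicate 1 the difference was -1.12 (adjusted p = 0.222 from limma), and without replicate 3 it was -2.19 (adjusted p = 0.081 from limma). It was -5.30 when blocked on the label ending, where replicate 1 is the only normal sample left (adjusted p = 0.0118 from limma). With the iUC arrays of low Tag signal it was -1.83 (adjusted p = 0.127 from limma). The 3 probe sets gave -2.28 to -2.06, and 2 of them were called. The mean of 7 measured neutrophil genes was 2.22 in normal bladder replicate 1, 0.21 to 0.76 in the other normal samples and -0.95 to 0.92 in iUC. The part of neutrophils in the CXCL8 values was not tested. CXCR1 and CXCR2, the receptors of CXCL8, had no probe set that names either alone.

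CXCL10, the interferon-induced ligand of CXCR3, varied widely among the tumors. Its normal values were -0.37, -0.70, 0.15 and -0.53 in replicates 1 to 4, while iUC ran from -1.01 through a median of 0.08 to 4.64. Of the iUC samples, 7 lay at 1 or above, on both Tag classes, and 8 lay above all normal samples, while 2 lay below them. The difference was 1.27 (95% confidence interval -0.41 to 2.94, adjusted p = 0.212 from limma) and was not called under any of the alternatives. The standard deviation was 1.36 over the 11 tumors of low Tag signal, 2.14 over the 7 of high signal and 0.37 over the 4 normal samples. With less spread among the normal samples, the interval from a shared spread can be too wide and the p too large. Both probe sets followed each other, at r = 0.972 over the 11 iUC arrays of low Tag signal and 0.973 over the 7 of high signal, as a description. CXCR3 differed by 0.60 (standard error 0.22, adjusted p = 0.0399 from limma), under 2-fold. With the arrays of low Tag signal it differed by 0.27 (adjusted p = 0.0158 from limma), and with those of high signal by 1.11 (adjusted p = 3.06e-06 from limma), where it was called higher. It did not pass the adjusted p without normal bladder replicate 2, 3 or 4 (0.56 to 0.60).

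CCL5, made by activated T cells and natural killer cells, did not pass the test. The values were 0.09, 0.74, -0.05 and -0.15 in normal bladder replicates 1 to 4 and -0.61 to 2.03 with a median of 0.00 in iUC. Only iUC replicates 2 and 4, at 1.83 and 2.03, lay above 1. The difference was -0.01 (95% confidence interval -0.79 to 0.78, adjusted p = 0.991 from limma). Of its receptors, CCR1 differed by -0.45 (standard error 0.39) and CCR3 by 0.09 (standard error 0.08), neither past the test. CCR1 reached 3.14 in 1 normal sample and at most 0.88 in iUC, and without normal bladder replicate 1 its difference was 0.43 (adjusted p = 0.0473 from limma). Blocked on the label ending, where replicate 1 is the only normal sample left, the CCR1 difference was -3.09.

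CCL20, an epithelial ligand of CCR6, was near 0 in all normal samples and lay far above them in a few tumors. The normal values were -0.30, 0.03, 0.01 and -0.03 in replicates 1 to 4, and iUC ran from -0.40 through a median of 0.09 to 2.10. Above 1 lay iUC replicates 2, 6 and 11, at 2.10, 1.75 and 1.34, and 10 of 18 lay above all normal samples. The difference was 0.37 (95% confidence interval -0.37 to 1.11, adjusted p = 0.413 from limma). CCR6 differed by 0.33 (standard error 0.12, adjusted p = 0.0353 from limma), under 2-fold, and by 0.18 and 0.57 with the arrays of low and of high Tag signal. It did not pass the adjusted p without normal bladder replicate 2, 3 or 4 (0.31 to 0.34).

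CX3CL1, the tethered chemokine also called fractalkine, was the only ligand whose groups did not overlap. Normal bladder replicates 1 to 4 had values of -0.35, -0.44, -0.52 and -0.57, and iUC ran from -0.31 through a median of 0.07 to 0.71. Every iUC sample lay above every normal sample, by a narrow gap, as for 3.22% of all genes. The difference was 0.53 (1.44-fold, 95% confidence interval 0.23 to 0.83, adjusted p = 0.0082 from limma), short of the 2-fold asked of a call. The values also differed by Tag class, at -0.31 to 0.25 on the iUC arrays of low signal and 0.11 to 0.71 on those of high signal. With the 11 arrays of low signal alone, the difference was 0.37 (adjusted p = 0.0125 from limma). It did not pass after quantile normalization (0.42, adjusted p = 0.166 from limma) or when blocked on the label ending (0.41, adjusted p = 0.751 from limma). The gene has 1 probe set. Its receptor CX3CR1 had no probe set that names it alone.

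**Figure D3:**
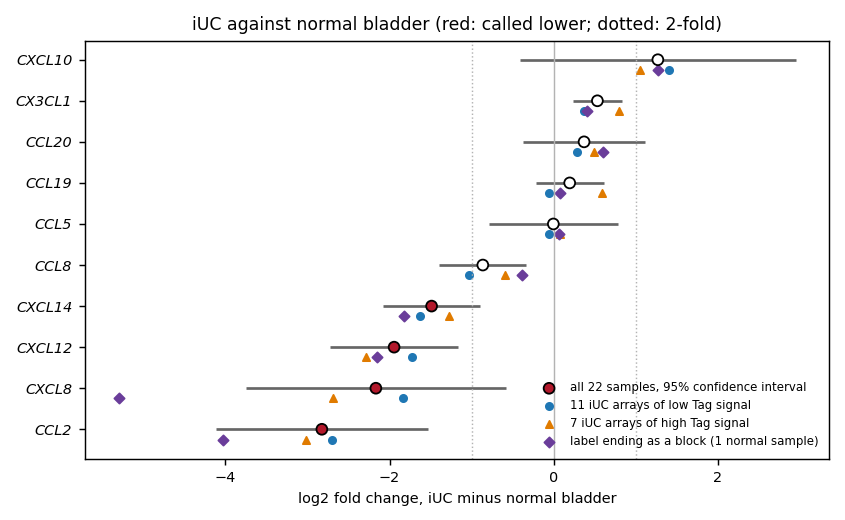
Log2 fold change of iUC against normal bladder (x axis) for each of the 10 ligands (y axis), with 95% confidence intervals from limma and filled points for the 4 called lower. Smaller marks give the difference with the 11 iUC arrays of low Tag signal, the 7 of high Tag signal, and when blocked on the label ending. CXCL8 moves from -2.17 to -5.30 with that block.

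Over the 18 probe sets, 6 were called lower: 2 of CXCL8, 2 of CXCL14, 1 of CXCL12 and the 1 of CCL2, against 10.7% of all probe sets. No probe set was called higher. Probe sets of 1 gene followed each other over the 22 samples at r = 0.631 (CCL19) to 0.990 (CXCL8), as a description over shared arrays.

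Among the tumors the ligands spread unequally. The standard deviation over the 18 iUC samples was 1.66 for CXCL10, 1.26 for CXCL8 and 1.16 for CCL2, each above that of 98.4% of genes or more. The order of these 3 changed with the Tag class of the arrays. Over the 11 tumors of low Tag signal it was 1.47 for CXCL8, 1.36 for CXCL10 and 1.21 for CCL2, and over the 7 of high signal it was 0.61, 2.14 and 1.14. It was 0.73 to 0.75 for CXCL12, CCL5 and CCL20, and 0.28 to 0.37 for CXCL14, CCL8, CCL19 and CX3CL1, near the middle of all genes, in both cases over the 18 tumors. The tumors with high values were not the same for each ligand. Replicate 4 was the highest in CXCL10, CCL5 and CCL8, and replicate 2 was the highest in CCL20 and CXCL14. Replicate 11 was the highest in CCL2, replicate 16 in CXCL8 and CXCL12, replicate 13 in CCL19 and replicate 5 in CX3CL1. The mean of the 7 inducible ligands ran from -0.58 to 1.27 in iUC and from 0.07 to 1.21 in normal bladder. The mean of the 3 homeostatic ligands ran from -0.57 to 0.55 in iUC and was 1.28, 0.24, 1.62 and 1.11 in normal bladder replicates 1 to 4.

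Pairs of ligands were compared across tumors within each Tag class, since the arrays fall apart by it, and 45 pairs were tested in each. CXCL14 and CCL5 were the only pair with an adjusted p under 0.05, over the 11 tumors of low Tag signal. There Pearson's r was 0.905 (permutation p = 0.00029, adjusted p = 0.013) and Spearman's rho was 0.727 (permutation p = 0.0149, adjusted p = 0.269). Without the 2 tumors farthest from the median of CXCL14, r was 0.724. Over the 7 tumors of high Tag signal r was 0.523 (exact permutation p = 0.229, adjusted p = 0.449) and rho was 0.714 (exact permutation p = 0.0881, adjusted p = 0.391). CCL2 and CCL8 gave r = 0.787 (permutation p = 0.00361, adjusted p = 0.0748) and rho = 0.736 (permutation p = 0.0126, adjusted p = 0.269) over the 11 tumors. For that pair r was 0.830 without the 2 tumors farthest from the median of CCL2. CXCL10 and CCL5 gave r = 0.906 (exact permutation p = 0.00615, adjusted p = 0.277) and rho = 0.643 (exact permutation p = 0.139, adjusted p = 0.391) over the 7 tumors of high Tag signal, and r was 0.450 without the 2 tumors farthest from the median of CXCL10, so that relation rests on those tumors.

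Of 30 other chemokine ligands, 18 had a probe set naming them alone. In iUC 6 of these were lower, 1 was higher and 11 were not called, beside 8.64% lower and 3.68% higher over all genes. Their median log2 fold change was -0.35, beside 0.08 over all genes. PPBP, a platelet chemokine, fell by 3.29 (9.81-fold, standard error 0.17, adjusted p = 7.38e-12 from limma), with normal values of 2.64 to 3.73 above all tumors at -0.35 to 0.60. CCL21, the other ligand of CCR7 and a product of lymphatic endothelium, fell by 2.51 (5.72-fold, standard error 0.18), from 1.43 to 3.06 in normal bladder to -0.34 to 0.29 in iUC. CCL14, a constitutive CC ligand, fell by 1.68 (standard error 0.20), again without overlap. CCL24, an eosinophil attractant, fell by 1.15, and CCL13, a monocyte attractant, fell by 1.49. Neither CCL24 (-0.95) nor CCL13 (-0.92) was called without normal bladder replicate 3, and CCL13 (-0.97) was also lost without replicate 4. Without replicate 3, 3 of the 18 were lower. CXCL16, a tethered ligand of CXCR6 on epithelium and macrophages, rose by 1.31 (standard error 0.41, adjusted p = 0.018 from limma). Its mean was 0.62 on iUC arrays of low Tag signal, -0.50 on those of high signal and -1.13 in normal bladder. CXCL16 was not called without replicate 3 (1.21) or 4 (1.04). CCL17, a ligand of CCR4 named after its values were seen, differed by 1.90 (standard error 0.93, adjusted p = 0.108 from limma), with -1.06 to -0.68 in normal bladder and -0.62 to 6.21 in iUC.

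Of 22 chemokine receptors, 14 had a probe set naming them alone, and their median log2 fold change was 0.16. ACKR3 was lower (7.14%, against 8.64% of all genes) and 0 were higher (against 3.68%). At an unadjusted p of 0.05, 3 were higher, and the unmoderated t-test called 0 higher. With no fold change asked, 18.2% of all genes passed the adjusted p and were higher. ACKR2, a decoy for inflammatory CC ligands, differed by 0.06 (standard error 0.10). The highest difference was that of CCR9, a gut-homing receptor named after its values were seen, at 0.89 (standard error 0.19), short of 2-fold. The mean of the receptors was -0.12 to 0.07 on the iUC arrays of low Tag signal, 0.18 to 0.56 on those of high signal, and -0.04 to 0.31 in normal bladder. The part of the array signal in the receptor values was not tested.

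**Figure D4:**
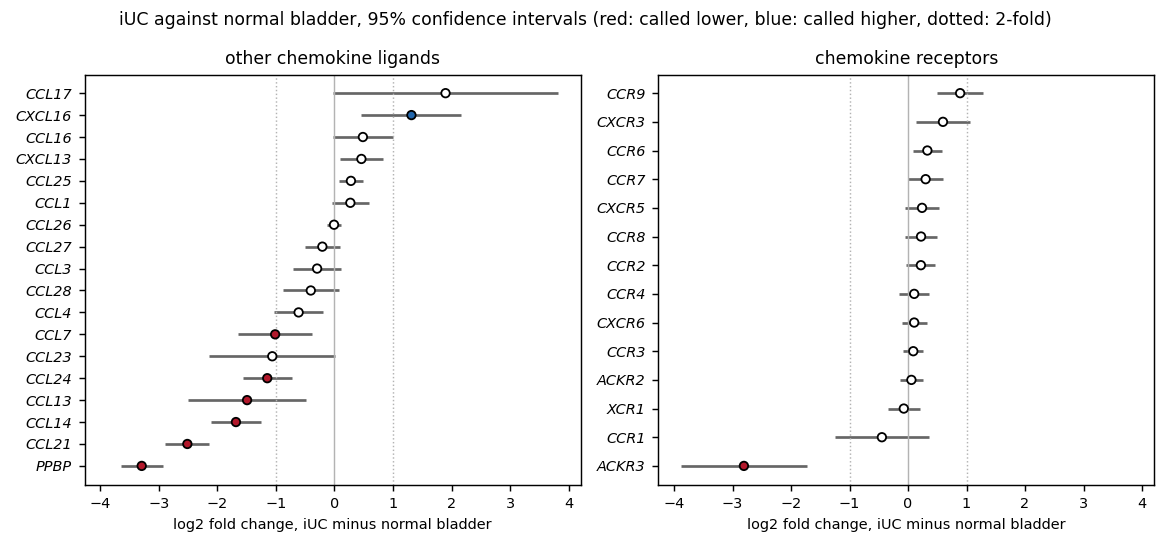
Log2 fold change of iUC against normal bladder (x axis) with 95% confidence intervals for 18 other chemokine ligands and 14 chemokine receptors (y axes). PPBP, CCL21, CCL14, CCL13, CCL24, CCL7 and the receptor ACKR3 are called lower, and CXCL16 is called higher.

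Genes that respond to the same signals as the inducible ligands did not all move one way. Over all genes 8.64% were lower and 3.68% higher, with a median of 0.08. With no fold change asked, 18.2% passed the adjusted p and were higher. Of 20 NF-kB and inflammatory response genes, 3 were lower, 0 were higher and 17 were not called, with a median of 0.05. Those 3 are IL6, a cytokine, at -3.29 (standard error 0.32), ICAM1, an adhesion receptor for leukocytes, at -2.01 (standard error 0.36), and SOD2, a mitochondrial superoxide dismutase, at -1.41 (standard error 0.31). At an unadjusted p of 0.05, 4 of the 20 were higher, and the unmoderated t-test called 0 higher. Of 19 interferon response genes, 6 were higher, 0 were lower and 13 were not called, with a median of 1.08. At an unadjusted p of 0.05, 11 of the 19 were higher and 0 lower. The unmoderated t-test called 4 higher and 0 lower. ISG15, an interferon-induced ubiquitin-like protein, rose by 2.20 (standard error 0.62, adjusted p = 0.00941 from limma). IFI44 rose by 2.34 (standard error 0.77) and was not called without normal bladder replicate 2 (2.31), 3 (2.37) or 4 (2.35). The adjusted p was then 0.0588 to 0.067 from limma. Its normal values lay close together, at -1.89 to -1.71, so the difference hardly moved, while fewer normal samples lower precision. OAS1, an antiviral synthetase, was not called without the same replicates, at differences of 1.43 to 1.48 and with normal values of -1.31 to -1.07. IFIH1, a sensor of viral RNA, was not called without replicate 1, 3 or 4 (1.37 to 1.59). The mean of the interferon list lay at -0.97 to -0.64 in normal bladder and -1.04 to 2.15 in iUC.

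Markers of the cells that these ligands attract were lower or not called in iUC. Over all genes 8.64% were lower and 3.68% higher. With no fold change asked, 17.5% passed the adjusted p and were lower, and 18.2% were higher. Of 14 macrophage genes, AIF1 (-2.07), MRC1, the mannose receptor (-2.0), TYROBP, a signaling adaptor of myeloid cells (-1.91), and CD163, a scavenger receptor (-1.16), were lower. By limma 0 were higher, with 1 at an unadjusted p of 0.05 and 0 by the unmoderated t-test. Their mean was 1.61 in normal bladder replicate 1, 0.13 to 0.51 in the other normal samples and -0.64 to 0.63 in iUC. Of 7 neutrophil genes, S100A9 and TREM1 were lower and 0 were higher by limma, with 1 higher at an unadjusted p of 0.05 and 0 by the unmoderated t-test. S100A9 was not called without normal bladder replicate 1 (-2.06) or 3 (-2.72), nor was TREM1 without replicate 1 (-0.88). Of 17 T and NK cell genes, 9 B and plasma cell genes and 8 dendritic cell genes, 0 were called by limma or the unmoderated t-test. At an unadjusted p of 0.05, 3, 1 and 1 of them were higher and 0, 1 and 2 were lower. Of 12 endothelial genes 3 were lower, with EMCN, an endothelial sialomucin, at -2.33 (standard error 0.53). The others, KDR (-1.46), a receptor of vascular endothelial growth factor, and CLDN5 (-1.03), a tight junction protein, were not called without normal bladder replicate 3 (-1.40 and -0.74) or 4 (-1.20 and -0.68), and KDR also not without replicate 1.

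Within the tumors, each ligand was set against the mean of each of 11 gene lists, giving 110 relations in each Tag class. The 4 relations printed with p-values were chosen after the values were seen. CCL5 followed the T and NK cell genes over the 11 tumors of low Tag signal, with r = 0.889 (permutation p = 0.0001, adjusted p = 0.011) and rho = 0.827 (permutation p = 0.00277, adjusted p = 0.112). Without the 2 tumors farthest from the median of CCL5, r was 0.820. Over the 7 tumors of high signal r was 0.904 (exact permutation p = 0.0623, adjusted p = 0.403) and rho was 0.286 (exact permutation p = 0.556, adjusted p = 0.909), and r was 0.224 without the 2 tumors farthest from the median, so there it rests on those tumors. CCL2 and the macrophage genes gave r = 0.962 (exact permutation p = 0.000794, adjusted p = 0.0873) and rho = 0.964 (exact permutation p = 0.00278, adjusted p = 0.306) over the 7 tumors, and r = 0.369 (permutation p = 0.268, adjusted p = 0.608) and rho = 0.545 (permutation p = 0.0877, adjusted p = 0.438) over the 11. Without the 2 tumors farthest from the median of CCL2 these r were 0.994 and 0.708. CXCL8 and the neutrophil genes gave r = 0.890 (exact permutation p = 0.00714, adjusted p = 0.196) and rho = 0.929 (exact permutation p = 0.00675, adjusted p = 0.338) over the 7 tumors. Over the 11 they gave r = 0.600 (permutation p = 0.0517, adjusted p = 0.317) and rho = 0.70 (permutation p = 0.0202, adjusted p = 0.189). Without the 2 tumors farthest from the median of CXCL8 these r were 0.745 and 0.596. CXCL10 and the interferon genes gave r = 0.633 (permutation p = 0.0359, adjusted p = 0.263) and rho = 0.536 (permutation p = 0.0939, adjusted p = 0.443) over the 11 tumors, with r = 0.359 without the 2 tumors farthest from the median of CXCL10. Over the 7 they gave r = 0.706 (exact permutation p = 0.0923, adjusted p = 0.406) and rho = 0.893 (exact permutation p = 0.0123, adjusted p = 0.338), with r = 0.682 without the 2 farthest. Other lists gave a higher r for some of these ligands. Over the 11 tumors r with the NF-kB genes was 0.690 for CXCL10, 0.756 for CCL2 and 0.645 for CXCL8. Over the 7, CXCL10 gave 0.847 with the dendritic cell genes and 0.833 with the B and plasma cell genes. These were -0.445 and -0.818 without the 2 farthest. CCL5 gave 0.925 with the B and plasma cell genes over the 7. The printed list gave the highest r for CCL5 over the 11 and for CCL2 and CXCL8 over the 7. Of the 110 in each class, CCL5 with the T and NK cell genes at low Tag signal was the only relation whose adjusted p passed, and its rho did not pass.

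**Figure D5:**
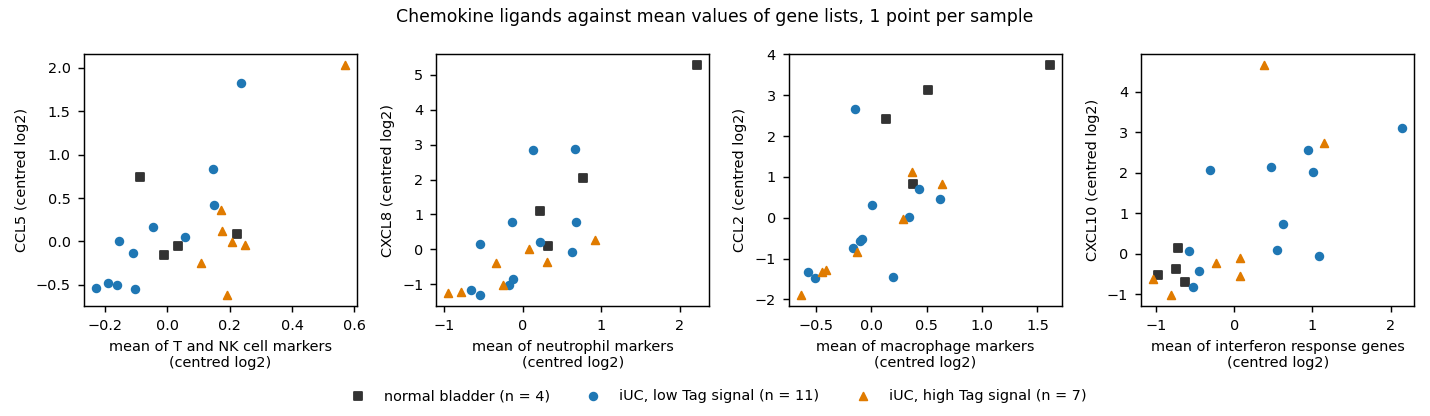
Centred log2 values of CCL5, CXCL8, CCL2 and CXCL10 (y axes) against the mean of T and NK cell markers, neutrophil markers, macrophage markers and interferon response genes (x axes), 1 point per sample. Squares are normal bladder, circles iUC arrays of low Tag signal and triangles iUC arrays of high Tag signal. Normal bladder replicate 1 is the square at the upper right for CXCL8 and CCL2.

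The genes whose pattern over the tumors was most like that of CCL5 were LCK, a kinase of T cell receptor signaling, the locus LOC607937, and CD3D, a subunit of the T cell receptor complex. Their Pearson correlations were 0.917, 0.909 and 0.898 over the 11 tumors of low Tag signal and 0.960, 0.985 and 0.960 over the 7 of high signal. For CXCL8 the 3 most alike genes were NABP1, TRIM67 and CD14, a coreceptor for bacterial lipopolysaccharide on myeloid cells, at 0.811 or above in both classes. For CCL8 they were ATF3, DUSP1 and IDO1, at correlations of 0.794 or above in both classes. For CXCL10 they were EVI2B, SAMSN1 and NPM1, at 0.833 or above. For CCL2 they were FRY, FBXO38 and ITGB8, at 0.756 or above, and none of them is on the macrophage list. The likeness was the lower of the 2 correlations, ranked over all genes, and is given as a description. By it the most alike gene was LRIG3 for CCL20 (0.884), NTN3 for CX3CL1 (0.878) and ODF3L1 for CXCL12 (0.863). It was GLDC for CCL19 (0.839) and NEK6 for CXCL14 (0.774). How high a likeness arises by chance over all genes was not tested.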

How the data were processed

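Each of the 18 iUC and 4 normal bladder samples was hybridized to 1 Affymetrix canine 2.0 array, from 5 µg of RNA. The authors used GeneSpring GX 12.6.1 and deposited log2 values of 43035 probe sets, centred on each probe set's median over the arrays (within 1e-06 of 0). Probe summarisation and array normalization were not given in the sources used here. Symbols came from the platform annotation, and probe sets of the same gene were averaged. The study's filter on low expression could not be applied to centred values. All 111 control probe sets were left out of the fits.

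Groups were compared over all genes with limma 3.58.1 in R 4.3.3 (lmFit, eBayes, no covariates). The unmoderated t-test also pooled the spread of both groups. Tag classes were parted at the largest gap in the Tag mean of the iUC arrays, 0.13 to 0.28. Correlations used 100000 permutations for 11 samples and all orderings for 7. Other steps used Python 3.11.15 with pandas 2.3.3 and matplotlib 3.10.9. On simulated data for iUC against normal bladder, 50 of 15115 genes were changed at each size. The fit called 41 of those changed by log2 1.5, all 50 of those changed by 4, and 1 unchanged gene. Values were drawn independently with each gene's iUC spread in both groups, so unequal spreads and Tag classes were not covered.

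The members and lists were chosen with earlier results of these data known. Genes named are the members, their measured receptors, called ligands and receptors, up to 4 called genes of other lists with the largest change in a direction, and the 3 genes most like a member. Genes outside this rule are marked as named after their values were seen. The labels number the samples as biological replicates. The alternatives were quantile and 75th percentile scaling, array weights, an unmoderated unpaired t-test, other summaries of probe sets, blocks, subsets by Tag class, a filter on range, and leaving out each normal sample.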

Additional observations from a re-analysis of the deposited data

Results flagged for a closer look

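In the 4 normal bladder samples, CXCL12 in replicate 2 (1.16) lay apart from the other 3, which lie between 1.93 and 1.97. The mean of the fibroblast genes was likewise apart in replicate 2, at 0.79, and the mean of the dendritic cell genes was apart in replicate 1, at 0.51. Chance flags about 1 in 20 such groups, and 26 were looked at.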

How the results depend on the processing

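The 4 ligands called lower became 0 after quantile normalization, 0 with the replicate block and 1 when blocked on the label ending, and 3 to 5 without each normal replicate in turn. The other settings gave 3 to 5. The replicate block used 4 iUC and 4 normal samples of different dogs that share only a number (correlations of their deviations -0.17 to 0.13). It called no receptor lower (1 without it) and 3 other ligands lower (6 without it). Receptors called higher were 1 with scaling to the 75th percentile, 1 with array weights and 2 with iUC arrays of high Tag signal, against 0. Other ligands called higher were 0 with normal replicates 3 and 4 averaged, 0 when blocked on the label ending, 2 with arrays of high Tag signal and 0 to 1 without each normal replicate, against 1. Other ligands called lower were 3 after quantile normalization and 3 to 6 without each normal replicate. Probe sets of the 10 ligands called lower were 0 after quantile normalization and 4 to 10 without each normal replicate, at 4 without replicate 3 and 10 without replicate 2, against 6, and 1 was called higher with arrays of high Tag signal. Pairs of ligands with an adjusted p under 0.05 were 2 with the probe set of highest variance, against 1, at low Tag signal, and 1 after quantile normalization, against 0, at high Tag signal. These alternatives for probe sets and pairs were chosen after seeing the data. Scaling to the 75th percentile moved the median of all genes from 0.08 to 0.20.

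Sign changes were limited to values that were not called, apart from CCL13. CCL5 was 0.11 with scaling to the 75th percentile, 0.19 with array weights, 0.85 with the replicate block, 0.0645 when blocked on the label ending, 0.0716 with arrays of high Tag signal and -0.11 to 0.19 without each normal replicate. CCL19 was -0.18 with array weights and -0.0586 with arrays of low Tag signal. CCR1 was 0.0331 with array weights and -0.77 to 0.43 without each normal replicate, CCR2 was -0.15 when blocked on the label ending, and CCR3 was -0.000249 with arrays of low Tag signal. ACKR2 was -0.0600 after quantile normalization, -0.0650 with array weights, -0.12 when blocked on the label ending, -0.0362 with arrays of low Tag signal and -0.0176 to 0.12 without each normal replicate. CCL13 was 0.0113 when blocked on the label ending. The causes were not tested. Over all single genes named, 748 comparisons with an alternative kept direction and side of the threshold, 118 fell short of it, 10 newly passed it and 18 changed sign.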
